A study of Mus musculus with 12 samples.

Results

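Expression was examined for 6 receptor genes of T cells: the costimulatory receptors Cd28, Icos and Cd226, the adhesion and costimulatory receptor Cd2, and the scavenger receptor family members Cd5 and Cd6. They were found by symbol, and 6 of 6 had a row in both count tables, which hold 13948 symbols (co-culture) and 35556 symbols (restimulation). All 6 passed the filter on low counts, and their counts lay between 552 and 8768 in every library. RNA was sequenced from spleen CD8+ T cells of OT-I mice, which carry a transgenic receptor for an ovalbumin peptide, in 4 groups of 3 libraries. Restimulated ATRA cells had been expanded with all-trans retinoic acid (ATRA, 5 ng/mL, the vitamin A metabolite that activates nuclear retinoic acid receptors), and restimulated CTRL cells with its solvent DMSO. Both were kept with the mouse glioma line GL261 carrying ovalbumin for 72 h at 1% oxygen, without further ATRA, and then received anti-CD3e antibody for 24 h. Co-cultured ATRA and co-cultured CTRL cells had the same histories up to the end of co-culture and were sorted then. All 4 groups had been expanded with IL-2 and antibodies to CD3e and CD28 and then cultured for 5 more days, so every cell had met an antibody against the product of Cd28, while the labels name anti-CD3e as the only antibody of the restimulation. The sort took live CD45.2+ cells. ATRA and CTRL libraries with the same replicate number share a labelled batch. No label tells whether replicate libraries were made from different mice or different cultures. The p-values therefore measure only how much these libraries spread, and that spread may be technical.

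A T cell that binds its antigen through the T cell receptor needs further signals from costimulatory receptors to respond fully. CD28 binds CD80 and CD86 on antigen-presenting cells and recruits phosphoinositide 3-kinase and adaptors that lead to NF-kB, and its relative ICOS, which appears after activation, binds ICOSL. The inhibitory relative CTLA-4 competes with CD28 for the same ligands, and TIGIT and CD96 compete with CD226 for CD155, the product of Pvr. CD2 binds CD48 in the mouse and helps the cells adhere. CD5 and CD6 are scavenger receptor cysteine-rich proteins that sit near the T cell receptor. CD5 is known as a negative regulator whose surface level follows the strength of receptor signals, and CD6 binds ALCAM.

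Total counts per library were 16288111 to 20115836 with restimulation and 23558244 to 26111497 without it. ATRA replicate 3 of the co-cultured cells stood apart from the other ATRA libraries (Pearson r of log CPM across genes 0.948 and 0.962, against 0.990 between the other two). CTRL replicate 1 of the co-cultured cells stood apart less (0.978 and 0.980, against 0.994). Levels are given in CPM, read counts relative to the library total after TMM scaling, which aligns the bulk of the genes between the libraries of a table. Cd8a was at 149 to 375 CPM in all 12 libraries, whereas Cd4 reached at most 1.22 CPM, so the cells matched their CD8 label. The monocyte marker Csf1r was at 0 in all 6 restimulated libraries, as were the glial markers Gfap and Olig2. Summed marker levels of other cell types moved with the groups in places. After restimulation, 4 of 4 B cell markers summed to 7.89 to 8.58 CPM in ATRA cells. In CTRL cells 2 of 4 summed to 0.786 to 2.58 CPM, and Ms4a1 was at 0. Dendritic cell markers (5 of 5) summed to 71.6 to 71.7 CPM in restimulated ATRA cells, against 28.6 to 60.5 CPM in CTRL cells. Most of this came from Itgax. Batf3 (0.836 against 9.45 CPM), Flt3 (0.141 against 0.864 CPM) and Xcr1 (0.0373 against 0.110 CPM) had lower means in ATRA cells. After co-culture, 3 of 4 NK cell markers had counts. They summed to 9.67 to 11.4 CPM in ATRA cells, against 32.4 to 42.2 CPM in CTRL cells. Most of this came from Eomes (means 9.28 and 27.1 CPM). Klre1 also had a lower mean in ATRA cells (0.574 against 9.79 CPM), while Klrb1c had a higher mean (0.805 against 0.377 CPM). CD4 T cell markers (4 of 4) summed to 73.6 to 76.5 CPM, against 40.2 to 45.4 CPM, nearly all from Zbtb7b. Foxp3 had a lower mean in ATRA cells (0.282 against 1.16 CPM). B cell markers (4 of 4) summed to 3.59 to 6.82 CPM in co-cultured ATRA cells, against 1.01 to 1.72 CPM in co-cultured CTRL cells. Dendritic cell markers (4 of 5) summed to 45.5 to 50.5 CPM, against 30.2 to 40.4 CPM, in the same groups. Most of this came from Batf3 (means 43.1 and 22.7 CPM). Zbtb46 (1.58 against 10.3 CPM) and Flt3 (0.0790 against 0.152 CPM) had lower means in ATRA cells. Markers of GL261 or glia (4 of 7 with counts) summed to 1365 to 1510 CPM in co-cultured ATRA cells. In co-cultured CTRL cells they summed to 846 to 936 CPM. Most of this came from Vim, which T cells also express. Axl (46.5 against 106 CPM), Egfr (0.154 against 1.39 CPM) and Nes (0.181 against 0.300 CPM) had lower means in ATRA cells. The part of these cells in the results below was not tested, and in bulk samples fewer cells of a type and less RNA per cell cannot be told apart.

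The first comparison set cells with prior ATRA exposure against CTRL cells in each state. After restimulation, Cd28, Cd2 and Cd6 were higher and Cd226 and Cd5 lower in ATRA than in CTRL cells. After co-culture, Cd226 was higher and Cd2, Cd5 and Cd6 were lower. Calls rest on edgeR's quasi-likelihood test, with p-values adjusted over the whole table and a threshold of 0.05. Called after restimulation were 5 of 6 members, 3 higher and 2 lower, against 62.6% called over all tested genes (31.8% higher and 30.8% lower). Called after co-culture were 4 of 6, 1 higher and 3 lower, against 33.6% over all tested genes (18.1% higher and 15.5% lower). The ranges of the ATRA and CTRL libraries were separate for 5 of 6 members after restimulation and for 4 of 6 after co-culture, and for 68.8% and 57.0% of all tested genes. With 6 genes, these shares are too near the background to be a result about the members. The background after co-culture also rested on single libraries: the number of genes called was 4071 of 12111, and became 1772 without CTRL replicate 2, 1613 without CTRL replicate 3 and 2226 without ATRA replicate 2. It was 7980 without both libraries that stood apart.

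Directions were compared between the states. The states come from different sets of batches, so a difference in effect by state cannot be told apart from one by batch set. Cd226, Cd2 and Cd6 were called in both states in opposite directions, a pattern that 11.5% of the genes tested in both states had. For Cd226 and Cd2 the call after co-culture was lost with the replicate number as a block and without some single libraries, as given below. That of Cd6 was kept. Cd5 was called in both states in the same direction, as were 11.0% of those genes. Tested as an interaction, the ATRA effect with restimulation minus that without it was called for 4 of 6 members, 3 with a higher and 1 with a lower value, against 49.2% called over all tested genes (23.6% higher and 25.5% lower). The median log2 fold change of the members was 0.23 after restimulation and -0.41 after co-culture, against 0.02 and 0.01 over all tested genes. With 6 genes chosen by name, these medians are a description.

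**Figure D1:**
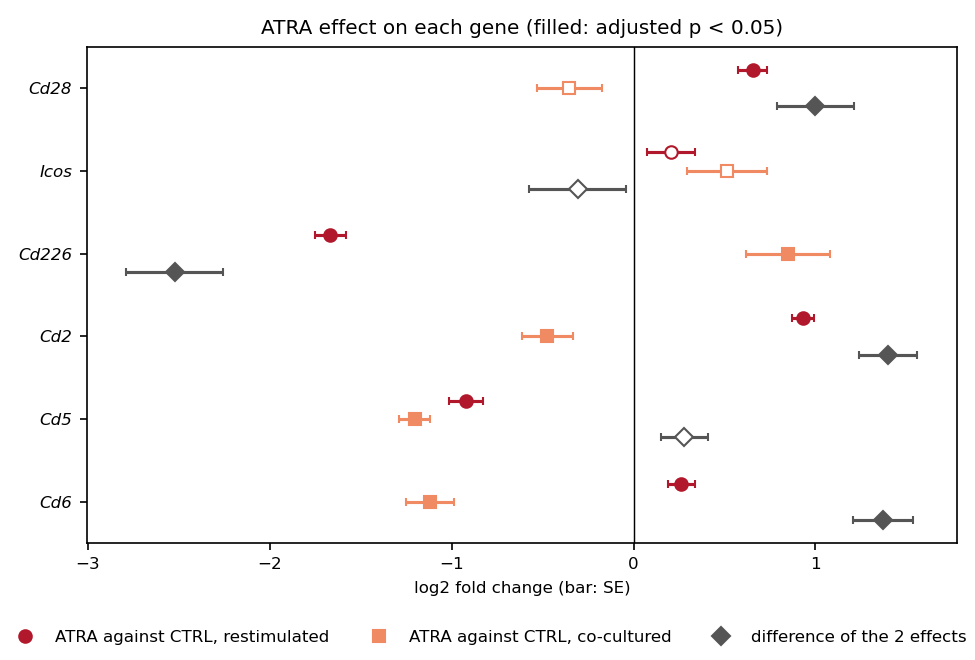
Log2 fold change of ATRA over CTRL cells for each gene after restimulation (circles) and after co-culture (squares), with the difference of the 2 effects (diamonds); bars are standard errors and filled symbols were called at an adjusted p under 0.05. The circle and the square lie on opposite sides of 0 for Cd28, Cd226, Cd2 and Cd6, and on the same side for Icos and Cd5.

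Cd28, the founding receptor of the family, had 105, 106 and 107 CPM in restimulated ATRA cells and 68.5, 61.7 and 71.8 CPM in restimulated CTRL cells (replicates 1 to 3). The ATRA libraries lay within 2 CPM of each other and above every CTRL library. The log2 fold change was 0.65 (SE 0.08, adjusted p = 1.47e-05). After co-culture, Cd28 had 58.1, 67.7 and 90.0 CPM in ATRA cells and 104, 84.4 and 86.8 CPM in CTRL cells. Here ATRA replicate 3 lay among the CTRL libraries, and the log2 fold change of -0.35 did not pass (SE 0.18, adjusted p = 0.167). Without that library it was -0.55 (adjusted p = 0.0104), without it and CTRL replicate 1 it was -0.44 (adjusted p = 0.000133), and with library totals in place of TMM it was -0.44 (adjusted p = 0.0481). These libraries were singled out by their values in these data, so the p-values without them are no ground for a call. The difference between the states was 1.00 (SE 0.21, adjusted p = 0.00191).

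Icos, the inducible costimulator, was the member with no call in either state. It had 70.8, 73.7 and 73.4 CPM in restimulated ATRA cells and 55.3, 54.6 and 78.9 CPM in restimulated CTRL cells, where replicate 3 lay above all ATRA libraries (log2 fold change 0.21, SE 0.13, adjusted p = 0.201). Without that CTRL library the log2 fold change was 0.39 (adjusted p = 0.00148). After co-culture Icos had 85.0, 77.2 and 49.1 CPM in ATRA cells and 42.0, 54.2 and 51.7 CPM in CTRL cells. ATRA replicate 3 again lay among the CTRL libraries (log2 fold change 0.51, SE 0.22, adjusted p = 0.110). Without it the value was 0.72 (adjusted p = 0.00389), and without it and CTRL replicate 1 it was 0.62 (adjusted p = 1.87e-06). The libraries left out for Icos in each state were singled out by their values in these data. The p-values without them show only how far the result depends on them, and are no ground for a call. The difference between the states was -0.31 (SE 0.27, adjusted p = 0.366), and -0.50 without ATRA replicate 3 of the co-cultured cells (adjusted p = 0.0433).

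Cd226 encodes the activating receptor DNAM-1 of T and NK cells, and it varied the most of the 6 genes, with an SD of log2 CPM of 0.894 over the 12 libraries, against 0.306 to 0.669 for the others. It had 39.9, 37.7 and 35.5 CPM in restimulated ATRA cells, against 123, 111 and 126 CPM in restimulated CTRL cells. Every ATRA library was thus far below every CTRL library, and the log2 fold change was -1.67 (SE 0.09, adjusted p = 8.65e-09). After co-culture the order was the opposite, with 33.3, 37.4 and 56.2 CPM in ATRA cells and 28.4, 20.6 and 21.4 CPM in CTRL cells (log2 fold change 0.85, SE 0.23, adjusted p = 0.0323). The groups did not overlap, but the 2 libraries nearest each other, ATRA replicate 1 and CTRL replicate 1, were within 5 CPM. With the replicate number as a block the co-culture value was 0.83 and did not pass (adjusted p = 0.0612). Leaving out co-cultured CTRL replicate 2 (0.75), CTRL replicate 3 (0.78) or ATRA replicate 2 (0.93) also ended the call, at adjusted p between 0.0631 and 0.118. Between the states the effect differed by -2.52 (SE 0.26, adjusted p = 1.23e-05).

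Cd2, the adhesion receptor, had 277, 266 and 266 CPM in restimulated ATRA cells, against 146, 142 and 137 CPM in restimulated CTRL cells. The groups were far apart and each was tight (log2 fold change 0.93, SE 0.06, adjusted p = 8.85e-08). After co-culture Cd2 had 135, 136 and 169 CPM in ATRA cells and 234, 183 and 195 CPM in CTRL cells, a log2 fold change of -0.48 (SE 0.14, adjusted p = 0.0404). Every ATRA library was below every CTRL library, with ATRA replicate 3 the nearest. Under the replicate block the co-culture value was -0.48 and did not pass (adjusted p = 0.0729). Leaving out CTRL replicate 1, 2 or 3 or ATRA replicate 1 or 2 also ended the call (-0.56 to -0.36, adjusted p between 0.0692 and 0.127). Between the states the effect differed by 1.40 (SE 0.16, adjusted p = 2.36e-05).

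**Figure D2:**
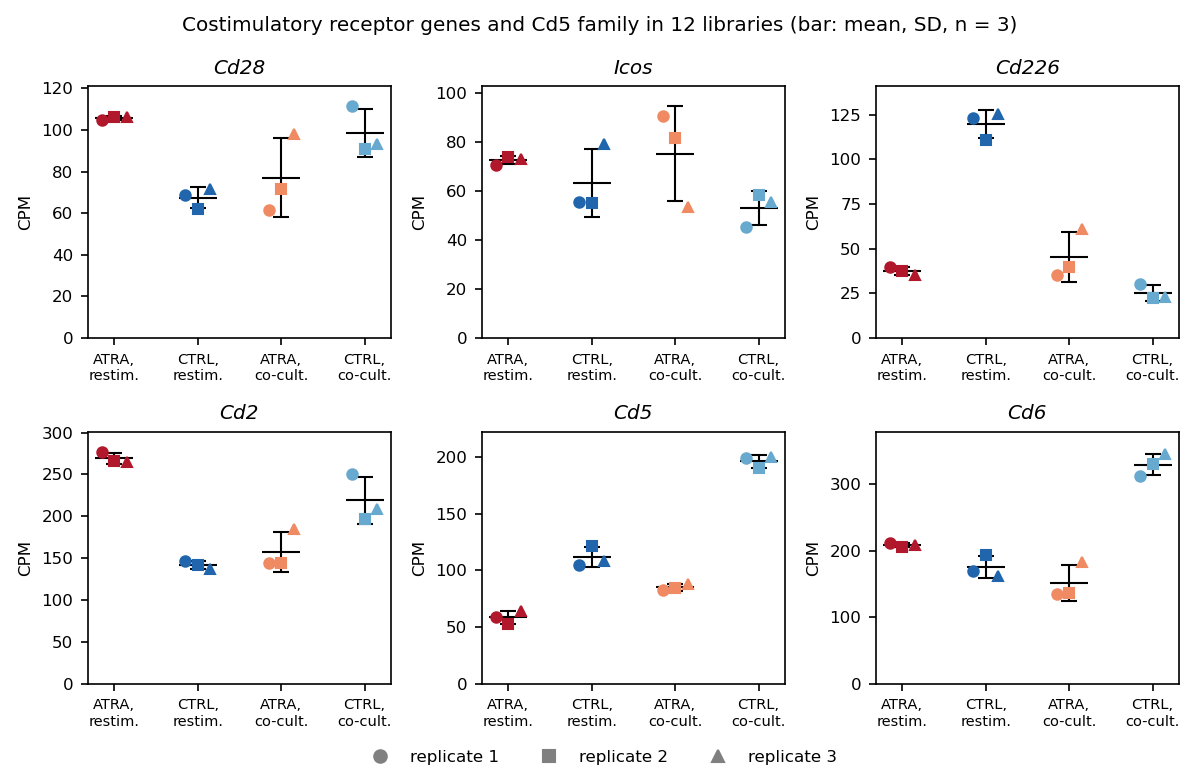
Level of each gene in the 12 libraries, in CPM scaled over all 12 together; symbols mark the replicate number, and the bar gives the mean with its SD over 3 libraries. Cd226 stands highest in restimulated CTRL cells and Cd5 highest in co-cultured CTRL cells, while ATRA replicate 3 of the co-cultured cells (triangle) lies apart from the other ATRA libraries for Cd28, Icos, Cd226, Cd2 and Cd6.

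Cd5, the negative regulator of receptor signals, was lower in ATRA cells in both states. It had 59.4, 52.7 and 64.5 CPM in restimulated ATRA cells and 105, 121 and 108 CPM in restimulated CTRL cells (log2 fold change -0.92, SE 0.09, adjusted p = 3.52e-06). The highest ATRA library was well below the lowest CTRL library. After co-culture it had 77.6, 79.5 and 81.1 CPM in ATRA cells and 186, 177 and 187 CPM in CTRL cells. ATRA replicate 3, which differed from its group in the other 5 genes, was level with it here, and the log2 fold change was -1.20 (SE 0.08, adjusted p = 0.000493). The difference between the states, 0.28 (SE 0.13), did not pass (adjusted p = 0.0922), but it did with library totals in place of TMM (0.36, adjusted p = 0.0419) and when ATRA replicate 3 of the co-cultured cells (0.31), restimulated CTRL replicate 2 (0.35) or restimulated ATRA replicate 2 (0.36) was left out, at adjusted p between 0.0462 and 0.049.

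The promoter of Cd5 was taken from the RefSeq table used here (build GRCm38.p6). Promoters of the other members are not shown, and their availability is not reported here. The stretch lies at chr19:10738925-10739224 on the minus strand and runs from 250 bases before to 50 bases after the annotated transcript start. Capitals mark matches to the E-box letters CANNTG and to the ETS core letters GGAAG on either strand.

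Cd5 promoter: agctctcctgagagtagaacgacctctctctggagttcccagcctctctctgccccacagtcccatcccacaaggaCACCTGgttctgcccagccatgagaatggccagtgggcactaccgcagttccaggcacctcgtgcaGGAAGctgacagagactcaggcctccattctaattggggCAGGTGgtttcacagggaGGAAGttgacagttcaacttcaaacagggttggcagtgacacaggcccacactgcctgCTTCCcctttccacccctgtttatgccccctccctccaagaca

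The window held 2 E-box matches and 3 ETS core matches, and no 2 of them overlapped. Of 32851 promoters of the same length in the table, 72.3% held an E-box match and 71.4% an ETS core match, so both are common letters. The core letters bound by retinoic acid receptors, AGGTCA, were searched on both strands and had 0 matches here, while 16.3% of the promoters held them. These counts describe the letters of this window.

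Cd6, the neighbour of Cd5 on chromosome 19, was lower in ATRA cells after co-culture, like Cd5, and higher after restimulation, unlike Cd5. It had 212, 206 and 210 CPM in restimulated ATRA cells, against 169, 193 and 162 CPM in restimulated CTRL cells (log2 fold change 0.26, SE 0.07, adjusted p = 0.00854). All ATRA libraries were above all CTRL libraries, by a small margin. After co-culture it had 127, 129 and 168 CPM in ATRA cells and 292, 308 and 322 CPM in CTRL cells, a log2 fold change of -1.12 (SE 0.13, adjusted p = 0.00245). The groups were far apart, with ATRA replicate 3 nearest to the CTRL libraries. Its effect differed between the states by 1.37 (SE 0.17, adjusted p = 3.48e-05).

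Ratios of 2 genes within a library need no scaling, and 6 pairs were compared in each state. With 3 libraries against 3, the smallest two-sided p of the exact permutation test is 0.1 (0.133 after adjustment over the 12 tests), so none could pass 0.05. Cd226 counts were 0.267, 0.254 and 0.245 times those of Tigit in restimulated ATRA cells, against 3.66, 2.96 and 3.10 times in restimulated CTRL cells. All 3 ATRA libraries had a lower ratio than all 3 CTRL libraries. The counts are not per transcript length, so the ratio is read between groups and does not rank the genes. After co-culture the ratio was 0.705, 0.770 and 1.08 in ATRA cells, against 0.254, 0.200 and 0.197 in CTRL cells. The log2 ratio thus differed by -3.66 after restimulation and by 1.96 after co-culture (exact permutation p = 0.1 in each state). Against Cd96, the other competitor, the log2 ratio of Cd226 differed by -1.65 and 0.97, again without overlap between the groups in either state (exact permutation p = 0.1 in each). Without ATRA replicate 3 of the co-cultured cells, the second of these was 0.62.

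Cd28 and Icos flank Ctla4 on chromosome 1 in the GRCm38.p6 gene order, and their relation to it was followed in both states. The ratio of Cd28 to Ctla4 was 0.615, 0.646 and 0.591 in restimulated ATRA cells and 0.737, 0.640 and 0.680 in restimulated CTRL cells, where the groups overlapped (difference in log2 ratio -0.15, exact permutation p = 0.2). Without restimulated CTRL replicate 1 the Cd28/Ctla4 difference was -0.098. After co-culture it was 0.247, 0.240 and 0.167 in ATRA cells and 0.714, 0.651 and 0.682 in CTRL cells (difference -1.67, exact permutation p = 0.1). Ctla4 itself was higher in ATRA cells in both states, with 172 ± 8.15 and 98.3 ± 6.46 CPM in restimulated ATRA and CTRL cells and 352 ± 164 and 134 ± 10.2 CPM in co-cultured ATRA and CTRL cells (SD, n = 3). The Icos to Cd28 ratio differed by -0.43 after restimulation (exact permutation p = 0.1) and by 0.85 after co-culture, where the groups overlapped (exact permutation p = 0.3). The Icos/Cd28 difference after co-culture was 0.56 without ATRA replicate 1 and 1.27 without ATRA replicate 3.

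Within the Cd5 family, the ratio of Cd5 to Cd6 was 0.280, 0.256 and 0.306 in restimulated ATRA cells, against 0.619, 0.629 and 0.667 in restimulated CTRL cells (difference in log2 ratio -1.19, exact permutation p = 0.1). After co-culture it was 0.612, 0.614 and 0.482 in ATRA cells and 0.636, 0.574 and 0.579 in CTRL cells, which overlapped (difference -0.07, exact permutation p = 0.8). Relative to Cd3e, a chain of the T cell receptor complex, Cd5 was lower in ATRA cells without overlap after restimulation (-0.85) and after co-culture (-1.22), at an exact permutation p of 0.1 in each. Cd3e had means of 183 to 194 CPM in all 4 groups.

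**Figure D3:**
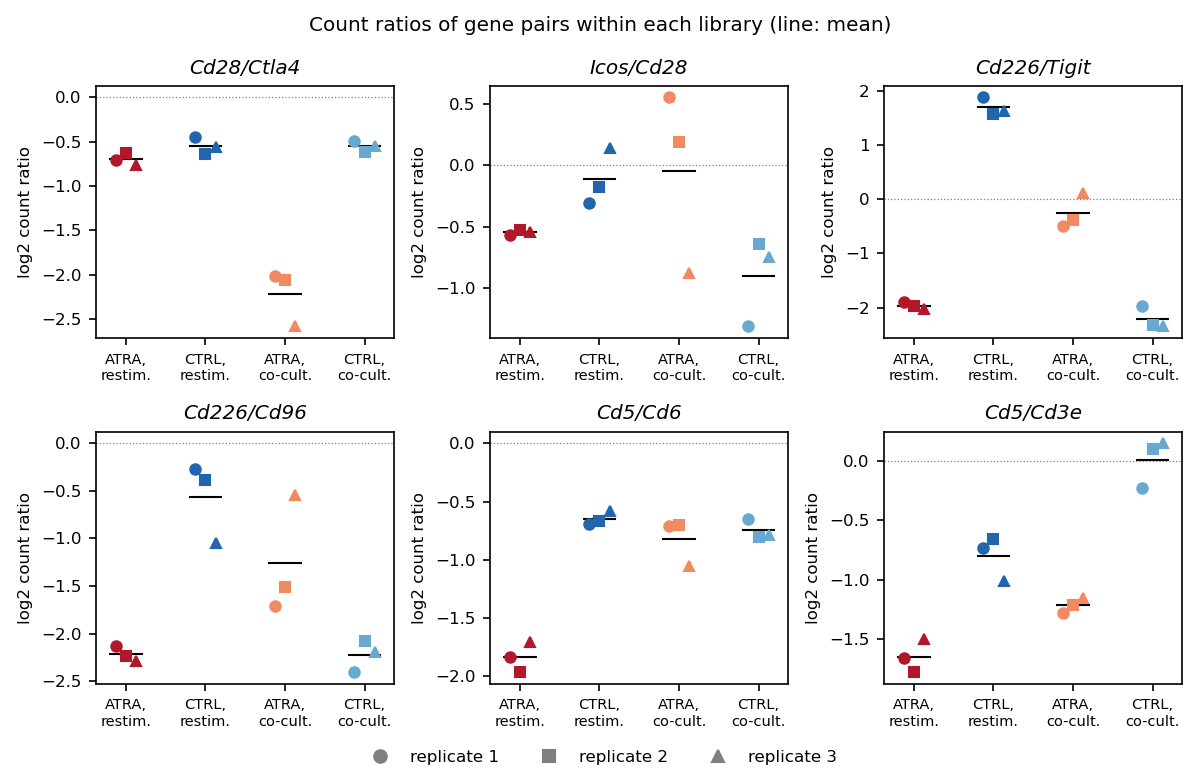
Log2 ratio of the counts of 2 genes within each library; symbols mark the replicate number and lines the mean of 3 libraries, and 0 (dotted) stands for equal counts, which are not per transcript length. Cd226/Tigit is lower in all 3 restimulated ATRA libraries than in all 3 restimulated CTRL libraries, and Cd5/Cd6 is lowest in restimulated ATRA cells.

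Restimulated and co-cultured cells were compared in a fit over all 12 libraries. These come from 2 tables and 2 sets of batches, so the batch set and the restimulation cannot be told apart. In ATRA cells, restimulated libraries had higher Cd28 (log2 fold change 0.45), Cd2 (0.77) and Cd6 (0.46) and lower Cd5 (-0.53). In all, 3 members were called higher and 1 lower, against 61.3% called over all tested genes (29.8% higher and 31.5% lower). In CTRL cells, 1 member was called higher and 4 lower, against 32.5% called over all tested genes (15.9% higher and 16.6% lower). Cd226 was 2.25 higher (SE 0.19, adjusted p = 4.43e-06), and Cd28 (-0.55), Cd2 (-0.63), Cd5 (-0.81) and Cd6 (-0.91) were lower. Icos passed in neither, at -0.05 in ATRA cells (adjusted p = 0.822) and 0.25 in CTRL cells (adjusted p = 0.333). The value for Icos in CTRL cells was 0.058 without restimulated replicate 3 and 0.15 without co-cultured replicate 1. In ATRA cells Cd226 was at -0.27 (SE 0.19, adjusted p = 0.220), and at 0.0011 without replicate 3 of the co-cultured ATRA cells. The Cd28 call in ATRA cells (adjusted p = 0.0183) was lost without replicate 1 (0.31) or 2 (0.40) of the co-cultured libraries (adjusted p = 0.0708 and 0.0665). That in CTRL cells (adjusted p = 0.0148) was lost without co-cultured replicate 1 (-0.45) or restimulated replicate 2 (-0.49), at adjusted p = 0.0552 and 0.0557.

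Levels in all 4 groups were set on one scale by TMM over the 12 libraries, and group means follow in CPM. Cd226 averaged 37.6 in restimulated ATRA cells, 120 in restimulated CTRL cells, 45.4 in co-cultured ATRA cells and 25.2 in co-cultured CTRL cells. Restimulated CTRL cells were thus at the top and co-cultured CTRL cells at the bottom, and the ranges of the 2 ATRA groups overlapped. Cd5 averaged 58.7 in restimulated ATRA, 112 in restimulated CTRL, 85.0 in co-cultured ATRA and 196 in co-cultured CTRL cells, which are 4 levels without overlap. Cd6 averaged 209 in restimulated ATRA, 175 in restimulated CTRL, 152 in co-cultured ATRA and 329.7 in co-cultured CTRL cells, where the lower groups, restimulated CTRL and co-cultured ATRA cells, overlapped. Cd2 averaged 269 in restimulated ATRA, 142 in restimulated CTRL, 157 in co-cultured ATRA and 219 in co-cultured CTRL cells. Its lower groups, co-cultured ATRA and restimulated CTRL cells, also overlapped. Cd28 averaged 106 in restimulated ATRA, 67.5 in restimulated CTRL, 77.2 in co-cultured ATRA and 98.5 in co-cultured CTRL cells, the same order of means as Cd2, but every neighbouring pair in that order overlapped. Icos averaged 72.4 in restimulated ATRA, 63.1 in restimulated CTRL, 75.2 in co-cultured ATRA and 52.9 in co-cultured CTRL cells, and again every neighbouring pair overlapped.

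Levels of different genes were compared per transcript length, in the TPM that the authors deposited for the restimulated cells. In restimulated ATRA cells Cd2 was highest at 308 ± 4.99 TPM, Cd6 (96.3 ± 1.40), Icos (94.5 ± 9.85) and Cd226 (92.2 ± 16.5) overlapped, and Cd28 (54.2 ± 1.34) and Cd5 (36.3 ± 3.69) came last (SD, n = 3). In restimulated CTRL cells Cd226 was highest at 319 ± 18.1 TPM, then Cd2 at 155 ± 0.502, Icos (89.7 ± 15.2) and Cd6 (79.2 ± 3.13) overlapped, and Cd5 (65.7 ± 2.53) and Cd28 (36.5 ± 2.48) followed. The place of Cd226 rests on the transcript length behind its TPM, which is not given in the sources used here. It had 7.73 counts per TPM in ATRA cells and 6.63 in CTRL cells, the fewest of the 6 genes, against 41.3 and 38.7 for Cd6.

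**Figure D4:**
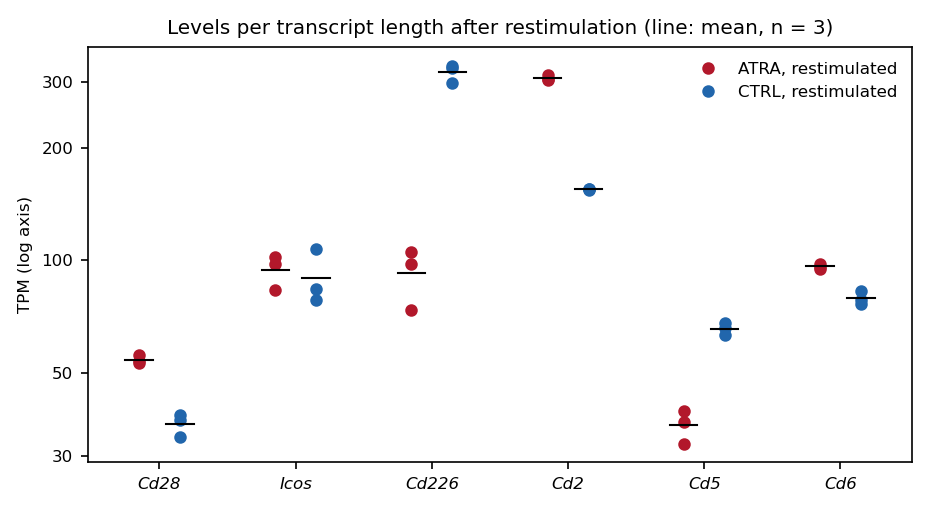
TPM of the 6 genes in restimulated ATRA (left of each pair) and CTRL libraries on a log axis; points are libraries and lines the means of 3. Cd226 is highest in CTRL cells and Cd2 in ATRA cells, where Cd226 lies level with Cd6 and Icos. Cd5 and Cd28 change places at the bottom.

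The genes most like each member were found by the root mean square difference of log2 CPM, each gene centred on its own mean over the 12 libraries. For Cd28 these were Lat (0.102), an adaptor of T cell receptor signalling, Zfc3h1 (0.105) and Uba3 (0.127). For Cd2 they were Zfc3h1 (0.108) and the proton pump subunits Atp6v0c and Atp6v1e1 (0.119 each). For Cd5 they were Ccdc50 (0.162), Cyp51 (0.210), an enzyme of cholesterol synthesis, and Litaf (0.216). Plekhg2 (0.174) and Ubl7 (0.175) were among the 3 genes nearest to Cd6. Icos was nearest to Notch2 (0.109), Galns (0.147) and Dnmt3b (0.152). Cd226 was the farthest from its closest genes, which were Naip2 (0.340), Pts (0.354) and Dipk1a (0.359). Between members, Cd28 and Cd2 were nearest (0.148), and Cd226 was 0.907 or more from each of the other 5. The distance is not divided by a gene's own spread, which was largest for Cd226 (SD 0.894, against 0.306 to 0.669 for the others). All these values are descriptions over 12 libraries of 4 groups.

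The genes around these receptors are given by lists, with each state's log2 fold change of ATRA over CTRL cells, which "rose" and "fell" refer to, and with list medians to set beside those of all tested genes (0.02 after restimulation and 0.01 after co-culture). Among the ligands, 6 of 8 listed genes were tested in each state, and after restimulation 2 were higher and 2 lower in ATRA cells (median 0.09), near the 62.6% of all tested genes called there. Alcam, the CD6 ligand, had 300.5 ± 15.1 CPM in restimulated ATRA cells and 139 ± 12.1 CPM in restimulated CTRL cells (log2 fold change 1.12, adjusted p = 1.21e-07). After co-culture it had 131 ± 34.2 CPM in ATRA cells and 262 ± 12.4 CPM in CTRL cells (-1.01, adjusted p = 0.00939), so its direction matched that of Cd6 in each state, and the difference between the states was 2.11 (adjusted p = 1.07e-05). Pvr, the CD226 ligand, had 67.4 to 74.2 CPM in restimulated ATRA cells and 13.6 to 17.6 CPM in restimulated CTRL cells (2.25, adjusted p = 1.42e-08). Cd48, the CD2 ligand, was lower in restimulated ATRA than CTRL cells (-0.69, adjusted p = 2.98e-06), where Cd2 itself was higher. The CD28 ligand gene Cd80 was also lower (-0.24, adjusted p = 0.0320), a call lost without restimulated CTRL replicate 1 or 3 or ATRA replicate 1 or 2 (adjusted p between 0.0637 and 0.129). After co-culture 3 ligands were higher and 1 lower (median 0.34), where 33.6% of all tested genes were called, a share that itself moved with single libraries. Icosl (2.84) and Nectin2 (1.69) were higher at low levels, with 2.45 ± 1.05 and 2.07 ± 0.263 CPM in ATRA cells and 0.337 ± 0.154 and 0.639 ± 0.185 CPM in CTRL cells, and Pvr was higher by 0.45. The Nectin2 call was lost without CTRL replicate 2 (adjusted p = 0.0556). Pvr no longer passed under the replicate block (0.45, adjusted p = 0.0591) or with library totals in place of TMM (0.38, adjusted p = 0.0642). Leaving out co-cultured CTRL replicate 2 or 3, or ATRA replicate 1 or 2, also ended its call (adjusted p between 0.0555 and 0.102). Cd86, the other CD28 ligand gene, had at most 14 counts in any library and was not tested, nor was Cdcp1, with at most 10.

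Of the 7 inhibitory relatives, 6 were tested, and after restimulation 3 were higher and 1 lower in ATRA cells (median 0.39), also near the 62.6% over all tested genes. Tigit, the competitor of CD226, had 148 ± 2.07 CPM in restimulated ATRA cells and 37.1 ± 3.49 CPM in restimulated CTRL cells (1.99, adjusted p = 1.83e-09), and 49.2 ± 2.39 CPM in co-cultured ATRA cells and 108 ± 4.31 CPM in co-cultured CTRL cells (-1.13, adjusted p = 0.000772). Its direction was thus the opposite of that of Cd226 in each state, and the difference between the states was 3.12 (adjusted p = 9.31e-09). Ctla4 (0.81 and 1.39) and Vsir (1.28 and 1.14), which encodes the checkpoint protein VISTA, were higher after restimulation and after co-culture. Btla, an inhibitory receptor of T and B cells, was lower in both (-1.48 and -1.96). After co-culture 2 were higher and 3 lower (median -0.66), against 33.6% called over all tested genes. Pdcd1, which encodes PD-1, had 69.8 ± 8.58 CPM in restimulated ATRA cells and 71.4 ± 10.9 CPM in restimulated CTRL cells (adjusted p = 0.829), and 15.2 ± 10.5 CPM in co-cultured ATRA cells and 124 ± 28.4 CPM in co-cultured CTRL cells (-3.02, adjusted p = 0.0147), a difference between the states of 2.99 (adjusted p = 0.00257). Cd96 passed in neither state (adjusted p = 0.824 and 0.565). The co-culture calls of Btla and Vsir were lost without CTRL replicate 2 or 3 or ATRA replicate 2, and that of Btla also without CTRL replicate 1 (adjusted p between 0.0894 and 0.129 for Btla and between 0.0558 and 0.098 for Vsir). Btla was also lost with the replicate block (-2.23, adjusted p = 0.0651) and with library totals (adjusted p = 0.0552). The Ctla4 call was lost without CTRL replicate 2 or 3 (adjusted p = 0.0691 to 0.0714).

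Signalling genes downstream of these receptors went both ways. All 20 were tested, and 8 were higher and 8 lower after restimulation (median 0.17), while 5 were higher and 4 lower after co-culture (median -0.04). Over all tested genes 62.6% were called after restimulation and 33.6% after co-culture. The adaptor gene Lcp2 had 409 ± 23.3 CPM in restimulated ATRA cells and 192 ± 11.5 CPM in restimulated CTRL cells, and 216 ± 7.29 CPM in co-cultured ATRA cells and 419 ± 29.1 CPM in co-cultured CTRL cells (log2 fold changes 1.09 and -0.95, adjusted p = 6.14e-08 and 0.00129). Prkcq, which encodes the protein kinase C theta that CD28 recruits, had 58.4 ± 5.00 CPM in restimulated ATRA cells and 182 ± 3.38 CPM in restimulated CTRL cells (-1.64, adjusted p = 4.79e-09). Lck, the kinase that phosphorylates CD28 and CD5, was also lower there (-1.01, adjusted p = 9.67e-08). After restimulation Pik3cd (-0.61) and Grap2 (-0.30) were lower and Fyn (0.46) higher, and after co-culture Pik3cd (0.85) and Grap2 (0.94) were higher and Fyn (-0.62) lower. The Grap2 call was lost without CTRL replicate 3 (adjusted p = 0.0505).

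Of 11 negative regulators, 4 were higher and 4 lower after restimulation (median 0.04), while the 4 called after co-culture were lower in ATRA cells (median 0.10). The numbers called lie near the background of 62.6% after restimulation (31.8% higher and 30.8% lower) and 33.6% after co-culture. By direction they differ from it after co-culture, where all 4 were lower, against 18.1% higher and 15.5% lower over all tested genes. With 11 genes this is a description. Ubash3b, a phosphatase that dampens receptor signals, rose by 1.20 after restimulation and fell by 1.67 after co-culture, a difference between the states of 2.87 (adjusted p = 1.22e-07). Ptpn6, which encodes the phosphatase SHP-1 that inhibitory receptors use, fell in both (-1.25 and -0.63), and Csk, a kinase that restrains Lck, fell after restimulation (-1.34). Rc3h2, a relative of the Roquin protein that represses Icos mRNA, rose by 0.95 after restimulation (adjusted p = 3.25e-07). Cblb, a ubiquitin ligase that sets the need for CD28 signals, fell by 0.87 after co-culture and Ptpn11 fell by 0.42, but Ptpn11 did not pass under the replicate block (-0.42, adjusted p = 0.0887) or with library totals (-0.50, adjusted p = 0.0581). Leaving out co-cultured CTRL replicate 2, CTRL replicate 3 or ATRA replicate 2 also ended that call (adjusted p between 0.108 and 0.135). Of 4 tested genes that costimulation is known to induce, 2 were higher and 1 lower after restimulation (median 0.41), against 62.6% called over all tested genes. Bcl2l1, which encodes the survival protein BCL-xL, rose by 1.21 (adjusted p = 4.2e-07), Il2ra rose by 0.67 and Myc fell by 1.67 (adjusted p = 1.51e-08). After co-culture 1 of 4 was called, against 33.6% over all tested genes (median 0.16), Il2ra at 0.45, which did not pass under the replicate block (0.45, adjusted p = 0.0614) or once CTRL replicate 2 or 3 was left out (adjusted p = 0.0642 to 0.0698). Il2 was not tested: it had 6 to 19 counts in restimulated ATRA libraries and 0 in each restimulated CTRL library.

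**Figure D5:**
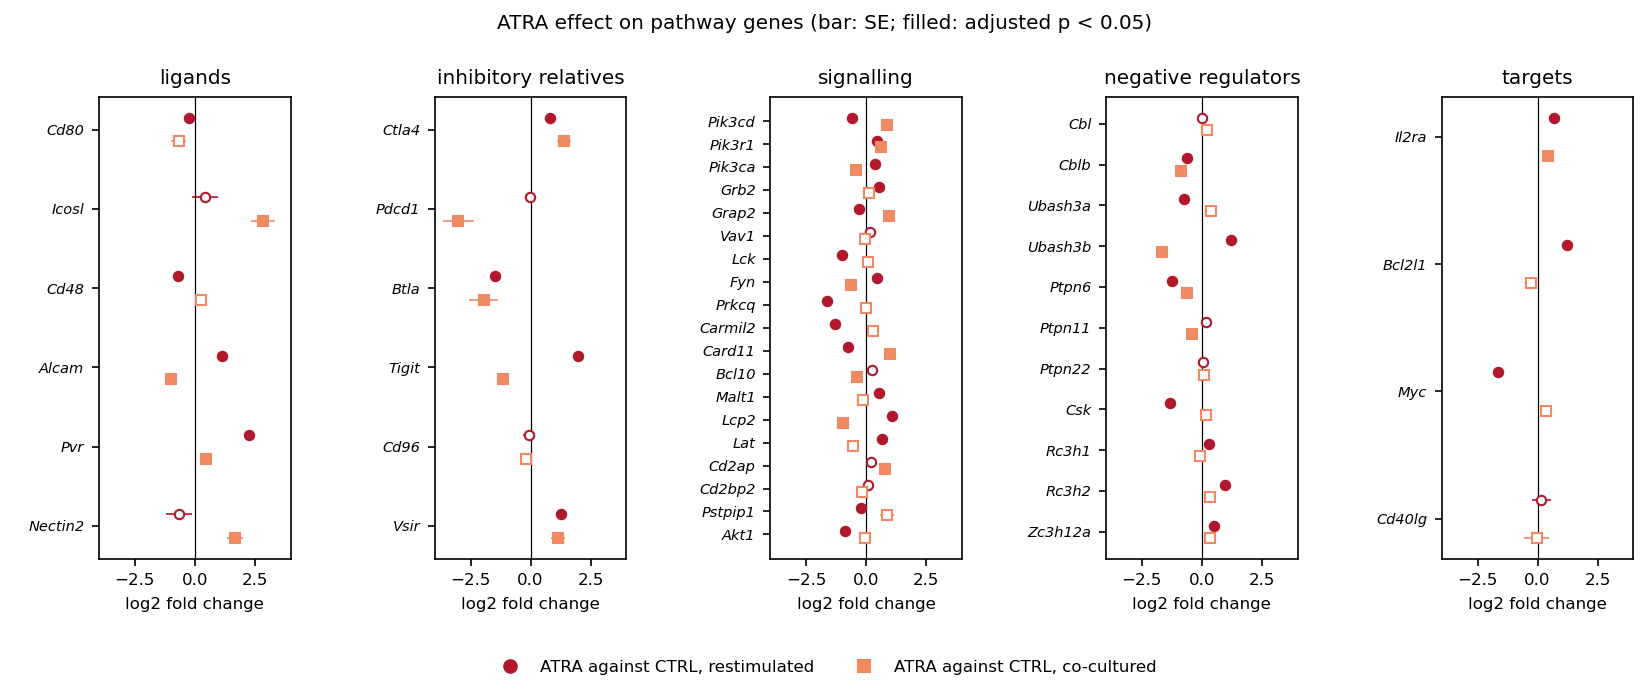
Log2 fold change of ATRA over CTRL cells for tested genes of the 5 lists (1 signalling gene is not shown) after restimulation (circles) and after co-culture (squares); bars are standard errors and filled symbols were called at an adjusted p under 0.05. Alcam and Tigit lie right of 0 after restimulation and left of it after co-culture, and Ctla4 and Vsir lie right of 0 in both states.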

How the data were processed

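Stranded total RNA libraries were prepared from sorted cells, per the labels' protocols. The submitters' processing notes name the build mm39 of the mouse genome and, without their roles, Salmon 1.10.3, STAR 2.7.11b, cutadapt 5.0 and DESeq2 1.42.1. The deposited values are whole counts per gene in 1 table for each state, and TPM in a further table for the restimulated cells, where the headings give a treatment and a number but not the sample titles, so TPM were used by group. The table without restimulation holds only rows whose counts sum to 10 or more. Of 35588 rows with restimulation, 16386 were 0 in every library and 32 symbols occurred more than once. Tests used edgeR 4.0.16 in R 4.3.3 (quasi-likelihood, TMM scaling, filterByExpr), with Benjamini-Hochberg adjustment over the 12111 genes tested after co-culture, 12783 after restimulation and 12364 of the 13625 shared symbols in the fit over both. limma 3.58.1 on log2(TPM + 1) and DESeq2 1.42.0 were alternatives. On simulated data with 200 genes changed by 2 on the log2 scale, 90.0%, 97.5% and 86.0% were recovered after co-culture, after restimulation and for the difference between the states, and false calls made up 6.25%, 7.58% and 9.47% of all calls. Effects smaller than 2, such as those of the members within each state, were not simulated. Far more genes were called in the data than were changed in the simulation. The same batch label stands on the ATRA and CTRL libraries of a number, so the numbers pair them. Within pairs, deviations from the group means correlated at -0.0954 to 0.130. A count of 3 corresponds to at most 0.184 CPM, for counting error only. The members, gene lists, marker lists, ratio pairs and the rule for the 3 most similar genes were chosen with earlier results of these data known. Named genes were all members, genes of the fixed lists, and genes that the similarity rule picked from these data. A few genes of these lists and of the most similar genes are not reported here.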

Additional observations from a re-analysis of the deposited data

Results flagged for a closer look

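The ATRA effect differed between restimulated and co-cultured cells for 4 of the 6 genes when the difference itself was tested as an interaction over all 12 libraries (edgeR quasi-likelihood, adjusted over all genes). The difference, restimulated minus co-cultured on the log2 scale, was 1.00 for Cd28 (adjusted p = 0.00191), 1.40 for Cd2 (adjusted p = 2.36e-05), 1.37 for Cd6 (adjusted p = 3.48e-05) and -2.52 for Cd226 (adjusted p = 1.23e-05). In all, 49.2% of the tested genes passed this test. Each state has its own set of batches, so restimulation and batch set cannot be told apart in these differences. Each group has 3 libraries, so no search for single outlying values was made.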

How the results depend on the processing

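Of 408 alternative values for the 6 genes, 379 kept their direction and their side of the threshold, as did 450 of 482 for the other named genes. After co-culture, the number of genes called was 1613 to 5617 without single libraries and 7980 without both libraries that stood apart. There Cd28 was at -0.44 with library totals and -0.44 without both of those libraries, and Icos at 0.62 without both. Single libraries left out gave -0.55 to -0.22 for Cd28, 0.35 to 0.72 for Icos, 0.59 to 1.01 for Cd226 and -0.59 to -0.36 for Cd2. With the replicate block, Cd226 was at 0.83 (adjusted p = 0.0612) and Cd2 at -0.48 (adjusted p = 0.0729). Of 72 results the block ended these calls and those of Pvr, Btla, Ptpn11 and Il2ra, and it changed no other call. For restimulated against co-cultured cells the block joined equal replicate numbers of both states. Each state has its own set of batches, so there the block did not follow the batches and is no check on them. After restimulation, Icos lay at 0.11 to 0.39 without single libraries. Without single libraries, the difference between states lay at -0.50 to -0.11 for Icos and at 0.21 to 0.36 for Cd5, which was at 0.36 with library totals. Restimulated against co-cultured CTRL cells, Cd28 lay at -0.61 to -0.45. In the same comparison of ATRA cells Cd28 lay at 0.31 to 0.66, Icos at -0.25 to 0.10 (0.081 with library totals) and Cd226 at -0.43 to 0.0011, so the sign of the last pair changed. Library totals moved the median of all genes there by 0.154, giving 4407 calls higher and 3188 lower in place of 3689 and 3890. In CTRL cells they gave 2373 and 1730 in place of 1964 and 2056. The log2 ratio of Cd5 to Cd6 after co-culture lay at -0.13 to 0.042. The cause of these changes was not tested. The 6 genes had 552 counts or more in every library.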
